A study of Arabidopsis thaliana with 27 samples.

Results

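The transcripts described here had a mean signal at least 1 log2 unit (a fold of 2) above that of Col-0 in both NMD mutants on every day sampled. A total of 74 of 22746 non-control probe sets of the array met this threshold in all 6 comparisons of a mutant with Col-0, which is 0.325% of them, and 8 of these were set aside by name, of which AT1G70780 is described below only as the neighbour of a member. The remaining 66 probe sets are the members. The members were selected on these 6 differences, which are therefore given below as a description with no test. The tests concern the change with day in Col-0 and the genes next to the members. The change with day in Col-0 is not among these 6 differences, although its group means entered them. The difference between the mutants on a day is a difference between 2 of the 6 values, so it is given as a description too. The same holds for the change with day of the difference from Col-0.

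Nonsense-mediated mRNA decay (NMD) is the pathway by which cells degrade transcripts whose stop codon lies in an unusual place, such as transcripts with a premature stop codon, an upstream open reading frame, a very long 3′ untranslated region or an intron behind the stop codon. UPF1 is the RNA helicase at its centre, and UPF3 links it, through UPF2, to the protein complexes that splicing leaves at exon junctions. In plants NMD acts on faulty products of alternative splicing, on transcripts of pseudogenes and on a set of normal transcripts.

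Callus is a mass of dividing cells that was grown here from hypocotyls of 12-d-old Arabidopsis thaliana seedlings by 6 days on callus-inducing medium. It was sampled after 0, 3 and 6 days on shoot-inducing medium, in Col-0 (the wild type), in lba1-1/upf1-1 (here upf1-1) and in upf3-1, both in the Columbia background. The first mutant carries a substitution in UPF1 and the second a disrupted UPF3. Each of the 9 groups held 3 arrays, 1 per RNA sample, and nothing in the labels tells whether replicates were separate cultures, so a p-value here reflects the spread among these RNA samples and that spread may be technical. The title of upf1-1 day 0 replicate 1 calls it wild type, but both its source name and its genotype are upf1-1, and it was kept as such.

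Values are RMA log2 signals, which ran from 2.04 to 13.48 with a median of 6.57. All 27 arrays were nearest to another array of their own group, and arrays of a group correlated at r of 0.992 to 0.997 over probe sets. UPF3 signal lay between 8.98 and 9.14 on the Col-0 arrays, between 9.45 and 9.73 on the upf1-1 arrays and between 5.70 and 6.38 on the upf3-1 arrays, so the upf3-1 labels fit the targeted transcript. UPF1 was not analysed here. Here and below, a gene is called measured if it was matched to a probe set with 1 gene symbol in the annotation used. Other genes may still be on the array, under probe sets with no symbol or several. Of 13 callus markers 4 were measured (BBM, PUCHI, LBD29 and LBD16), and their mean log2 signal in Col-0 was 7.65 at day 0, 5.43 at day 3 and 5.06 at day 6. In these bulk samples, fewer cells of a type and less RNA per cell cannot be told apart.

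The 66 members were a mixed set. In the annotation of the array 36 of them have 1 gene symbol, 2 have several and 28 have none, and the last 2 kinds are called here by their probe set. All 36 symbols matched a protein-coding gene, and 32 of the 36 are only the locus code, meaning that the gene has no other name in that annotation. Averaged over the 6 comparisons, the differences from Col-0 ran from 1.08 to 2.97 with a median of 1.44. In their smallest comparison 4 members stood above 2, 9 lay between 1.5 and 2, and 53 lay between 1 and 1.5. Their level in Col-0 was ordinary: the members' median over days was 6.55, beside 6.56 for all probe sets, with 9 members under 5 and 9 over 8.

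**Figure D1:**
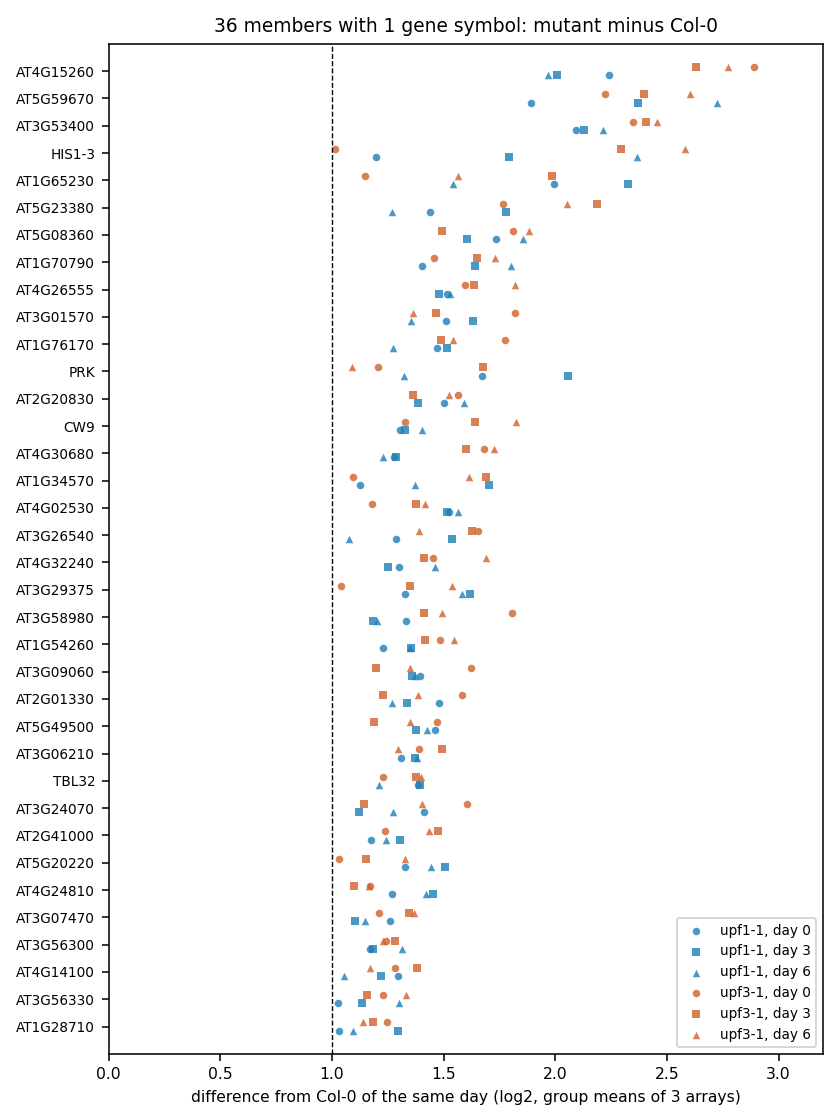
Difference in mean log2 signal (x axis) between each mutant and Col-0 of the same day for the 36 members with 1 gene symbol (y axis), sorted by the mean of the 6 values. Colour marks the mutant and shape the day, each point compares 3 arrays with 3, and the dashed line is the threshold of 1 that chose the members. AT4G15260, AT5G59670 and AT3G53400 lie farthest to the right, and HIS1-3 spreads most widely.

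The groups rarely overlapped. In 65 of the 66 members all mutant arrays lay above all Col-0 arrays of the same day in all 6 comparisons, where 5.08% of all probe sets do so. In single comparisons this was so for 16.8%, 16.0% and 15.9% of all probe sets in upf1-1 on days 0, 3 and 6 and for 14.4%, 16.2% and 16.8% in upf3-1. The exception was HIS1-3, which overlapped on day 0 in both mutants. For reference, 66 members were called by limma in upf1-1 on each day, against 9.8%, 10.2% and 11.0% of all probe sets called higher on days 0, 3 and 6, and 65, 66 and 66 were called in upf3-1, against 8.8%, 11.9% and 10.3%. These counts follow from the choice of members. The threshold itself was met by 1.12%, 1.12% and 0.954% of all probe sets in upf1-1 on days 0, 3 and 6 and by 1.11%, 1.98% and 1.19% in upf3-1. The members just inside the threshold were HIS1-3 with 1.01, 255997_s_at with 1.01 and 253550_at with 1.02 in their smallest comparison, and just outside it lay 266308_at with 0.997, AT3G07010 with 0.992 and AT2G35820 with 0.988.

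AT3G53400 showed the plainest pattern. It is one of the Arabidopsis genes with a conserved peptide upstream reading frame ahead of its main reading frame. Its log2 signal in Col-0 was 6.94, 6.92 and 6.90 at day 0, 6.79, 6.88 and 6.99 at day 3, and 6.81, 6.94 and 7.11 at day 6. In upf1-1 it was 8.96, 8.96 and 9.11 at day 0, 9.13, 9.01 and 8.90 at day 3, and 9.13, 9.19 and 9.18 at day 6. In upf3-1 it was 9.26, 9.36 and 9.18 at day 0, 9.37, 9.22 and 9.29 at day 3, and 9.49, 9.35 and 9.40 at day 6. Every mutant array thus stood far above every Col-0 array, and the 3 days were alike in each genotype. Against Col-0 of days 0, 3 and 6, upf1-1 was higher by 2.09, 2.13 and 2.21, and upf3-1 by 2.35, 2.41 and 2.45.

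The named member with the highest mean difference was AT4G15260, a member of the UDP-glycosyltransferase family, whose enzymes attach sugars to small molecules. Its signal lay between 6.07 and 6.62 on the 9 Col-0 arrays. In upf1-1 it was 8.53, 8.62 and 8.47 at day 0, 8.32, 8.24 and 8.35 at day 3, and 8.32, 8.22 and 8.19 at day 6. In upf3-1 it was 9.22, 9.23 and 9.12 at day 0, 8.73, 9.03 and 9.01 at day 3, and 9.05, 9.08 and 9.02 at day 6. The 3 genotypes formed 3 separate levels on each day, with upf3-1 at the top. Against Col-0, upf1-1 was higher by 2.24, 2.01 and 1.97 and upf3-1 by 2.89, 2.63 and 2.78.

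Members related to cell surface perception and immunity included the dimmest and one of the most raised. AT5G59670 encodes a receptor kinase with leucine-rich repeats, the class of membrane proteins through which plant cells sense external signals. Its Col-0 signal was 3.78, 3.60 and 3.86 at day 0, 4.34, 3.36 and 3.93 at day 3, and 3.78, 3.70 and 3.37 at day 6, near the bottom of the scale. In upf1-1 it was 5.70, 5.81 and 5.41 at day 0, 5.97, 6.51 and 6.28 at day 3, and 6.50, 6.26 and 6.26 at day 6. In upf3-1 it was 6.32, 5.57 and 6.02, then 5.96, 6.57 and 6.30, and then 6.48, 5.94 and 6.23. The mutants overlapped each other on all 3 days and neither overlapped Col-0. CW9, a gene of the coiled-coil class of intracellular NLR immune receptors, differed from Col-0 by 1.30 to 1.83. AT1G70790 encodes a lipid-binding protein with a C2 domain, a module that attaches proteins to membranes, and its differences ran from 1.40 to 1.80. On its arrays Col-0 lay between 7.05 and 7.58 and both mutants between 8.86 and 9.23.

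**Figure D2:**
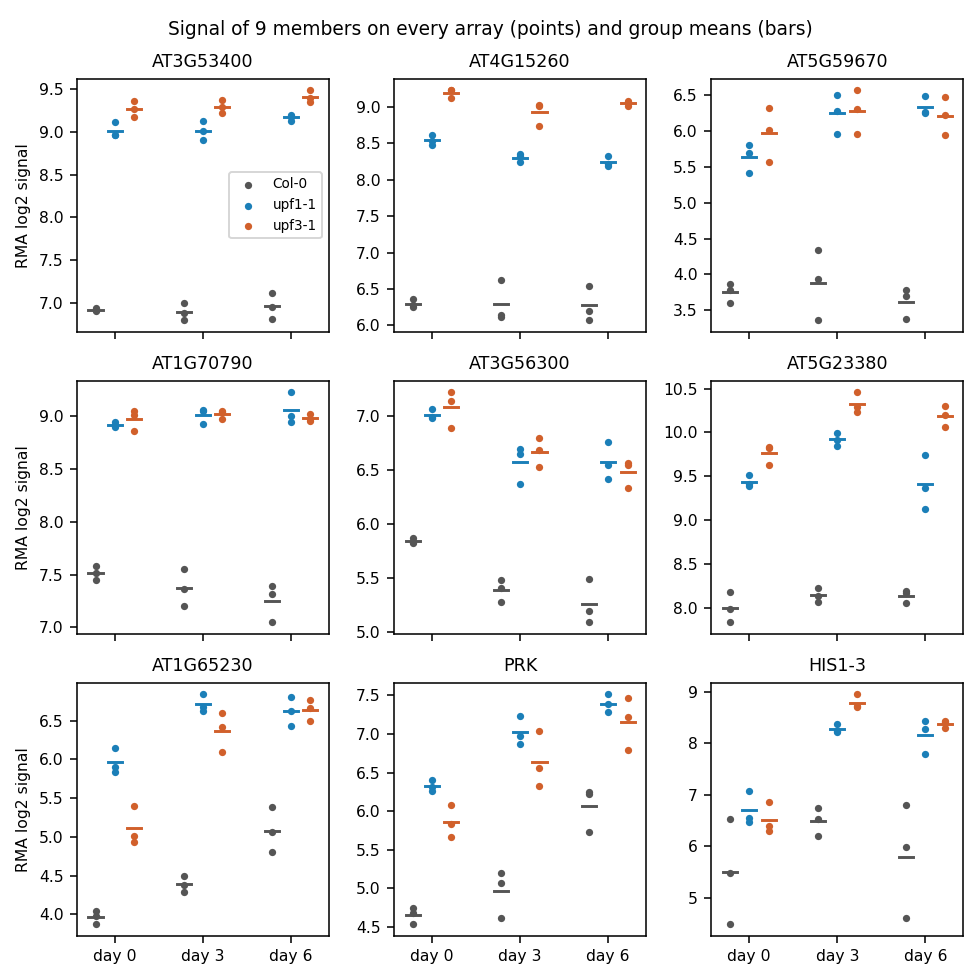
RMA log2 signal (y axis, scaled to each gene) of 9 members on every array (points) with the mean of each group of 3 arrays (short bars), by day (x axis) and genotype (colour). In 8 of the 9 members no mutant array falls to the Col-0 arrays of its day, and in HIS1-3 they overlap on day 0.

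Several members act on tRNA, translation or RNA in organelles. AT1G76170 belongs to the proteins that add sulfur to tRNA, and its 6 differences from Col-0 lay between 1.27 and 1.78. AT3G56300, of the cysteinyl-tRNA synthetase family that loads cysteine onto its tRNA, lay between 1.17 and 1.32. AT3G56330, of a family of tRNA guanine methyltransferases, lay between 1.03 and 1.33. These last genes lie close together, with 2 coding genes between them. AT4G30680 carries an MA3 domain as in the translation initiation scaffold eIF4G, with differences of 1.23 to 1.72. AT5G49500 encodes an SRP54 subunit of the signal recognition particle, which guides nascent secretory proteins to the membrane, and differed by 1.19 to 1.47. The pentatricopeptide repeat proteins AT3G26540 and AT3G09060, a family that binds RNA in chloroplasts and mitochondria, differed by 1.07 to 1.65 and by up to 1.62. The zinc knuckle proteins AT3G24070 and AT5G20220 differed by 1.12 to 1.60 and by at least 1.03, and AT1G34570, whose product resembles the yeast Yae1 protein, by 1.09 to 1.70.

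A few members encode proteins of the chloroplast. PRK encodes phosphoribulokinase of the Calvin cycle, the route by which chloroplasts fix carbon dioxide. Its signal in Col-0 was 4.54, 4.75 and 4.69 at day 0, 5.20, 5.07 and 4.62 at day 3, and 5.73, 6.23 and 6.25 at day 6. In upf1-1 it was 6.32, 6.40 and 6.26, then 6.86, 6.97 and 7.23, and then 7.38, 7.51 and 7.28 on the same days. In upf3-1 it was 5.67, 5.83 and 6.08, then 6.32, 7.04 and 6.55, and then 6.79, 7.22 and 7.47. Col-0 at day 6 thus came up to the level that upf3-1 already had on day 0, and on each day both mutants were clear of Col-0. AT4G02530, a protein of the thylakoid lumen, and AT4G26555, a peptidyl-prolyl isomerase of the FKBP type, which helps proteins fold, differed by 1.18 to 1.56 and 1.48 to 1.82.

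The other markers of green tissue were also higher in the mutants. Besides PRK, 5 of 11 such genes were measured (RCA, LHCB4.1, LHCB4.2, SBPASE and PORB). The limma test called 5, 5 and 4 of them higher in upf1-1 on days 0, 3 and 6, beside 9.8%, 10.2% and 11.0% of all probe sets, and 4, 5 and 4 higher in upf3-1, beside 8.8%, 11.9% and 10.3%, with 0 lower. The mean log2 signal of these 5 genes lay between 6.61 and 6.94 on the Col-0 arrays of day 0, between 7.71 and 7.74 in upf1-1 and between 7.31 and 7.48 in upf3-1. On day 6 the 3 ranges were 7.19 to 7.63, 7.88 to 8.16 and 7.97 to 8.17. The part of green tissue in the members' differences was not tested. Shoot meristem markers (3 of 10 measured) were called on 1 occasion lower in upf1-1, on day 0, and on days 3 and 6 in upf3-1, also 1 lower each. The measured root hair markers (2 of 6) gave 1 call higher in upf3-1 at day 0 and 1 lower in upf1-1 at day 6. Of the 4 callus markers, BBM was lower in upf1-1 at day 0 by -0.38 (SE 0.13) and LBD29 higher by 0.69 (SE 0.15), and in upf3-1 at day 6 BBM was lower by -0.43 (SE 0.13) and PUCHI by -0.46 (SE 0.14), while no callus marker was called in the other 4 comparisons with Col-0.

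The remaining named members hold other roles. HIS1-3 encodes a linker histone variant that drought induces, and AT1G54260 a winged-helix protein of the linker histone type, with differences of 1.01 to 2.58 and 1.23 to 1.55. AT3G01570 belongs to the oleosins, the coat proteins of seed oil bodies, and differed by 1.36 to 1.82. Among enzymes of the cell wall and sugar transfer, TBL32, which acetylates xylan, differed by 1.21 to 1.40, AT1G28710 by 1.03 to 1.30 and AT4G14100 by 1.05 to 1.38. AT2G01330, a WD40 protein like the actin-interacting AIP1, differed by 1.23 to 1.58, the F-box protein AT3G58980 by 1.18 to 1.80 and the DnaJ-type chaperone AT2G41000 by 1.17 to 1.47. AT2G20830, which resembles folate-binding transferases, differed by 1.36 to 1.59, the ABC1-like kinase AT4G24810 by up to 1.45, the armadillo-repeat protein AT3G06210 by 1.29 to 1.49 and the XH-domain protein AT3G29375 by 1.04 to 1.62. AT5G23380 and AT5G08360 share a domain of unknown function, DUF789, and differed by 1.27 to 2.19 and 1.49 to 1.88. AT1G65230, AT3G07470 and AT4G32240, whose products have no well-described role, differed by 1.15 to 2.32, by up to 1.37 and by 1.25 to 1.69. These groups were formed from known roles after the members were found, and no enrichment was computed.

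HIS1-3 was the least even member. Its Col-0 signal was 6.52, 4.49 and 5.48 at day 0, 6.53, 6.74 and 6.20 at day 3, and 4.61, 5.99 and 6.79 at day 6. In upf1-1 it was 6.55, 7.07 and 6.47, then 8.37, 8.24 and 8.22, and then 7.79, 8.28 and 8.43, and in upf3-1 it was 6.85, 6.30 and 6.38, then 8.94, 8.71 and 8.69, and then 8.29, 8.40 and 8.44. The Col-0 arrays scattered most on days 0 and 6. On days 3 and 6 both mutants lay above all Col-0 arrays, on day 0 neither did, and the mutants overlapped each other on days 0 and 6. The spread within groups, pooled over the 9 groups, was an SD of 0.54 for HIS1-3, beside a median of 0.14 over members and 0.12 over all probe sets.

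Many of the highest members carry no gene symbol. The probe set 246394_at had the highest mean difference of all, 2.97. Its signal in Col-0 was 5.70, 5.53 and 5.33 at day 0, 5.26, 4.91 and 5.40 at day 3, and 4.76, 4.92 and 4.35 at day 6. In upf1-1 it was 8.04, 8.23 and 7.85, then 7.62, 7.51 and 7.74, and then 7.11, 7.40 and 7.57, and in upf3-1 it was 8.72, 8.65 and 8.65, then 8.88, 8.67 and 8.77, and then 8.21, 7.98 and 8.20. The Col-0, upf1-1 and upf3-1 arrays were apart from each other on every day. Next came 250476_at with a mean of 2.88 and, after AT4G15260, 263676_at with 2.42, whose 6 values stayed between 2.30 and 2.54. The probe set 248749_at had a mean of 2.05 and the opposite order of the mutants. Its signal was 8.32 to 8.64 on the Col-0 arrays, 10.81 to 11.10 on the upf1-1 arrays and 9.99 to 10.26 on the upf3-1 arrays, so the 3 genotypes did not overlap on any day.

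Over members, the 6 differences of 1 member ranged by 0.14 to 1.58 from smallest to largest, with a median range of 0.47. The range stayed under 0.5 in 37 members and went over 1 in 6. Averaged over days, 46 of the 66 stood higher in upf3-1 than in upf1-1. This count comes from the same 6 values and has no share of all probe sets beside it, so it is a description only.

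The level in upf3-1 was then set beside that in upf1-1. The choice of members left the direction of this difference free, but it is a difference between 2 of the 6 values that chose them. The counts and the shares of all probe sets beside them are therefore a description, from which no excess among the members is read. Of the 66 members, 11 were higher and 3 lower in upf3-1 at day 0 (limma adjusted p under 0.05), against 2.28% and 2.22% of all probe sets. On day 3, 8 were higher and 3 lower, against 5.5% and 4.5%, and on day 6, 8 were higher and 2 lower, against 1.46% and 1.32%. On at least 1 day 22 members (33.3%) were called, beside 14.1% of all probe sets. The 4 members called higher in upf3-1 on all 3 days were AT4G15260, 246394_at, 258677_at and 259902_at, and 248749_at was called lower on all 3. These counts over all 3 days have no share of all probe sets beside them. The other 44 members were not called between the mutants on any day.

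**Figure D3:**
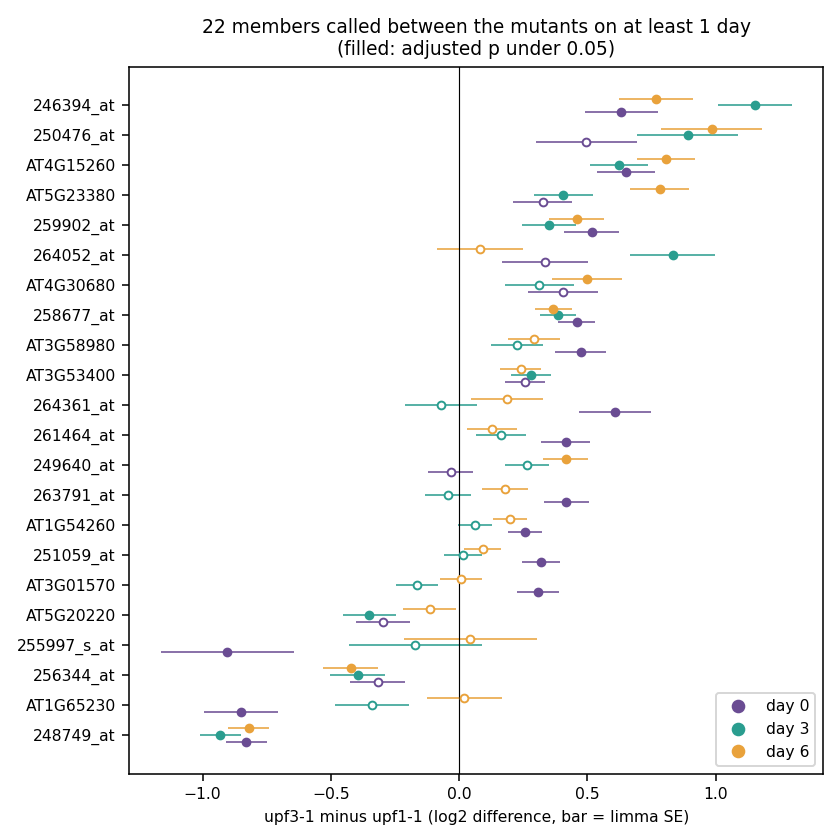
Log2 difference between upf3-1 and upf1-1 (x axis, limma SE as bars, 3 arrays against 3) on days 0, 3 and 6 (colour) for the 22 members called on at least 1 day (y axis). Filled points have an adjusted p under 0.05. AT4G15260 is filled to the right of 0 on all days and 248749_at to the left.

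AT4G15260 was higher in upf3-1 by 0.65 (SE 0.11) at day 0, 0.62 (SE 0.11) at day 3 and 0.81 (SE 0.11) at day 6, with limma adjusted p of 0.00139, 0.00113 and 0.00028. For 246394_at the differences were 0.63, 1.15 and 0.77 (SE 0.14 each), with adjusted p of 0.0117, 2.27e-05 and 0.00435. In 259902_at they were 0.52, 0.35 and 0.46, each with an SE of 0.11. Both AT4G15260 and 246394_at had all upf3-1 arrays above all upf1-1 arrays on each day. Of the remaining calls, 250476_at was higher in upf3-1 by 0.89 at day 3 and 0.98 at day 6 (SE 0.20), and AT5G23380, one of the DUF789 genes, by 0.41 at day 3 and 0.78 at day 6 (SE 0.11). The probe set 264052_at was higher by 0.83 (SE 0.17) at day 3, and 264361_at by 0.61 (SE 0.14) at day 0.

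In the other direction 248749_at was lower in upf3-1 by -0.83, -0.93 and -0.82 (SE 0.08) on days 0, 3 and 6, with limma adjusted p of 8.16e-07, 1.7e-07 and 1.91e-06. AT1G65230 was lower on day 0, by -0.85 (SE 0.15, adjusted p = 0.0011). Its upf1-1 arrays of that day read 5.90, 6.15 and 5.84 and its upf3-1 arrays 4.93, 5.01 and 5.40, a gap that was gone on day 6, when they read 6.80, 6.63 and 6.43 against 6.49, 6.67 and 6.77. The zinc knuckle gene AT5G20220 was lower by -0.35 (SE 0.10) at day 3. The probe set 256344_at was lower by -0.40 and -0.42 (SE 0.11) on days 3 and 6, and 255997_s_at by -0.90 (SE 0.26) at day 0, with an adjusted p of 0.0472.

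Single arrays moved some of these counts. The count of higher members on day 0 was 5 without upf3-1 day 0 replicate 2, and on day 3 it was 5 without upf3-1 day 3 replicate 1. The count of lower members on day 3 was 1 without replicate 2 or 3 of upf1-1 or without replicate 1 or 3 of upf3-1, and 6 without upf3-1 replicate 2. On day 6 it was 1 without any 1 of the 3 upf1-1 arrays or without upf3-1 replicate 2 or 3. With the arrays centred on the poly-A spike-in controls the split on day 0 became 0 higher and 2 lower, on day 3 it was 5 and 1, and on day 6 it was 4 and 1. Centred on reference genes the splits were 11 and 3, 10 and 2, and 11 and 1. These centrings moved the calls over all probe sets too. Without them, 50.63%, 55.01% and 52.53% of all probe sets called between the mutants were higher in upf3-1 on days 0, 3 and 6. Centred on reference genes the shares were 53.03%, 75.68% and 80.67%, and centred on the spike-in controls 22.98%, 93.69% and 70.27%. The splits under a centring are therefore not read as a property of the members. Among named calls, 246394_at on day 0 had an adjusted p of 0.0704 without upf1-1 replicate 3, and 264361_at had 0.0954 without upf1-1 replicate 1 and 0.0795 without upf3-1 replicate 2. AT5G20220 was not called on day 3 without upf1-1 replicates 2 or 3 or upf3-1 replicates 1 or 3 (highest adjusted p 0.212), and 256344_at was not called without any of the same 4 at day 3 (highest 0.102), nor on day 6 without any upf1-1 array or upf3-1 replicates 2 or 3 (highest 0.138). The day 0 call of 255997_s_at was lost without any of 18 of the 27 arrays (highest adjusted p 0.213).

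The change of the members with day on shoot-inducing medium was tested in Col-0. On day 3, 15 members were higher and 14 lower than on day 0, against 14.9% and 16.3% of all probe sets, and on day 6, 15 were higher and 19 lower, against 16.9% and 20.1%. On both days 12 were higher and 9 lower, counts that have no share of all probe sets beside them. A total of 25 members (37.9%) were called on neither day, beside 56.8% of all probe sets, and among them are AT3G53400, AT4G15260, AT5G59670, HIS1-3, AT5G23380, CW9 and TBL32. The callus markers fell on both days in all 4 measured genes, and the root hair markers rose in both measured genes.

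**Figure D4:**
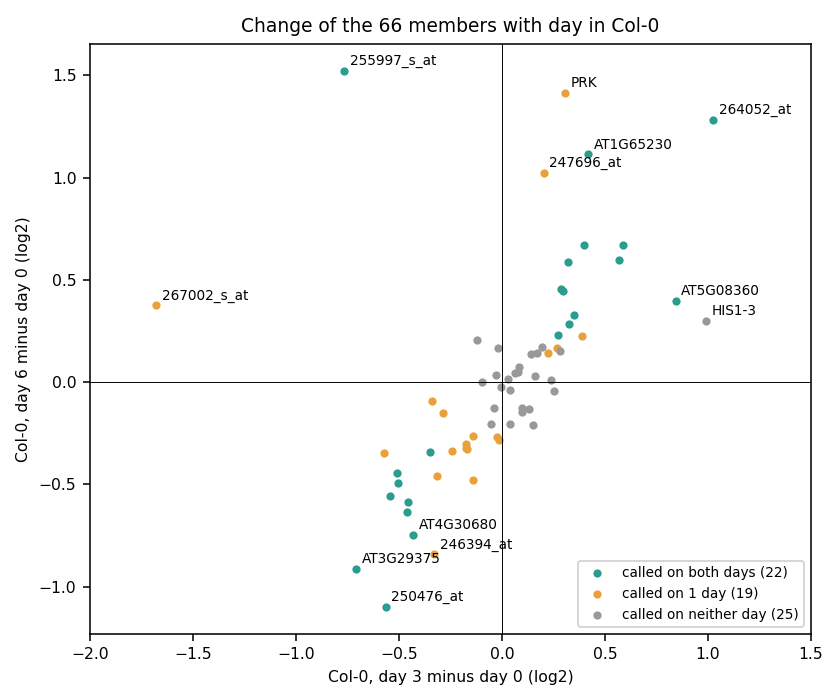
Change in mean log2 signal of the 66 members in Col-0 from day 0 to day 3 (x axis) and to day 6 (y axis), 1 point per member, 3 arrays per group. Colour gives the number of days called at a limma adjusted p under 0.05. PRK and 255997_s_at stand high on day 6 only, and 267002_s_at stands low on day 3 only.

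Among the members that rose in Col-0, PRK did so by 1.41 (SE 0.18, limma adjusted p = 1.61e-06) at day 6 and AT1G65230 by 1.11 (SE 0.15, adjusted p = 1.78e-06). AT1G65230 read 4.04, 3.87 and 3.98 at day 0 and 4.80, 5.38 and 5.06 at day 6, with no overlap. AT5G08360, the other DUF789 gene, rose by 0.84 (SE 0.11) at day 3 and 0.40 at day 6. The probe set 264052_at rose by 1.02 at day 3 and 1.28 at day 6 (SE 0.17), 263437_at by 0.57 and 0.60 (SE 0.12), and 256049_at by 0.59 and 0.67 (SE 0.11). The glycosyltransferase-like gene AT4G14100 rose by 0.40 and 0.67 (SE 0.09).

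Of the members that fell, AT3G29375, the XH-domain gene, did so by -0.71 at day 3 and -0.91 at day 6 (SE 0.11), with limma adjusted p of 3.14e-05 and 8.22e-07. AT4G30680, with the eIF4G-like domain, fell by -0.43 and -0.75 (SE 0.14). Its Col-0 arrays read 6.63, 6.54 and 6.53 at day 0, 6.11, 6.14 and 6.14 at day 3, and 5.70, 5.87 and 5.89 at day 6, so that the 3 days were separate. The tRNA-related genes AT3G56300 and AT3G56330 fell alike, the first by -0.45 and -0.58 (SE 0.11) and the second by -0.46 and -0.64 (SE 0.09). The probe sets 250476_at and 246394_at fell by -1.10 (SE 0.20) and -0.84 (SE 0.14) at day 6. On day 3 267002_s_at fell by -1.68 (SE 0.27), and AT1G34570 by -0.57 (SE 0.18). The probe set 255997_s_at fell by -0.76 (SE 0.26) at day 3 and rose by 1.52 (SE 0.26) at day 6.

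The count of higher members on day 3 was 8 without Col-0 day 0 replicate 3, and the count of lower members on day 6 was 12 without Col-0 day 0 replicate 1. The fall of 255997_s_at on day 3 was not called without Col-0 day 0 replicate 2 (adjusted p = 0.0967) or 3 (0.0683), nor without Col-0 day 3 replicate 3 (0.28), whose signal of 4.87 stood below the 6.00 and 6.36 of its group. AT1G34570 was not called without Col-0 day 0 replicate 1 (0.102) or day 3 replicate 2 (0.145). The spike-in controls themselves differed by day, with a mean log2 signal of 6.25 in Col-0 at day 0 and 5.52 at day 6. Centred on them, the split of the members was 24 higher and 1 lower on day 3 and 55 higher and 0 lower on day 6. The median of all probe sets in the second comparison moved by 0.74. Of all probe sets called under this centring, 87.35% were higher on day 3 and 97.95% on day 6. Centred on reference genes the split of the members was 14 and 14, and 15 and 16. Rises and falls in this comparison are therefore relative to the rest of the array. The 66 members all met their threshold under both centrings, but this could not have come out otherwise. The reference gene centring raised the differences of the mutants from Col-0 by 0.0084 to 0.072, and the spike-in centring by 0.074 to 0.33.

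The difference from Col-0 was next set side by side between days. Because each such change is the difference between 2 of the 6 values that chose the members, the counts are a description from which nothing is read about the members. In upf1-1, the limma interaction term passed the threshold in 0 members on day 3 against day 0, where 0.0923% of all probe sets were called higher and 0.211% lower. On day 6, 0 were higher and 1 lower, against 0.281% and 0.356%. In upf3-1, 1 was higher and 0 lower on day 3, against 0.624% and 0.365%, and 1 higher and 0 lower on day 6, against 0.325% and 0.361%. At an unadjusted p under 0.05 there were 3 and 8 members in upf1-1 on days 3 and 6 (4.55% and 12.1%, beside 9.75% and 10.5% of all probe sets), and 21 and 16 in upf3-1 (31.8% and 24.2%, beside 14.3% and 12.3%). A difference that misses the threshold is not shown to be constant.

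The 3 members past the threshold were different ones. In 255997_s_at the upf1-1 difference from Col-0 shrank to 1.01 by day 6, a change of -1.58 (SE 0.37). Its Col-0 signal went from 6.26, 6.69 and 6.58 at day 0 to 7.70, 8.19 and 8.20 at day 6, while upf1-1 read 9.39, 9.02 and 8.92 and then 9.24, 8.83 and 9.08. The Col-0 arrays of these days were thus apart and the upf1-1 arrays overlapped. In AT1G65230 the upf3-1 difference was 1.15 at day 0 and 1.98 at day 3, a change of 0.84 (SE 0.21). In 249640_at the upf3-1 difference was 1.09 at day 0 and 1.62 at day 6, a change of 0.53 (SE 0.12), and its upf3-1 arrays went from 7.84, 7.89 and 7.93 to 8.46, 8.54 and 8.39 while Col-0 stayed between 6.71 and 6.94. All 3 lay close to the threshold: without 1 array they were lost for 17, 21 and 16 of the 27 arrays, with adjusted p up to 0.145, 0.117 and 0.104.

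Of the genes of the pathway itself, 5 of 9 listed NMD and exon junction factors were measured. In upf1-1, 2 were higher and 0 lower on each day. Of all probe sets, 9.8%, 10.2% and 11.0% were called higher there on days 0, 3 and 6, and 8.55%, 8.44% and 8.27% lower. The 2 higher factors were UPF3 by 0.59, 0.57 and 0.53 (SE 0.09), and BTZ1, whose human counterpart is the exon junction protein CASC3, by 0.19, 0.32 and 0.34 (SE 0.06). In upf3-1, 1 was higher and 1 lower on each day, against 8.8%, 11.9% and 10.3% of all probe sets called higher and 7.15%, 13.0% and 9.7% called lower. The lower one was UPF3, by -2.95, -3.01 and -3.12 (SE 0.09). The higher one was BTZ2 at day 0, by 0.21 (SE 0.07), and BTZ1 on days 3 and 6, by 0.33 and 0.29. Y14, an exon junction subunit, and UPF2 were not called on any day, with differences between -0.19 and 0.03.

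Among these calls, that of BTZ1 in upf1-1 at day 0 was lost without Col-0 replicate 1 or upf1-1 replicates 2 or 3 (highest adjusted p 0.166). BTZ2 at day 0 was lost without Col-0 replicates 1 or 3, upf1-1 replicate 1 or any upf3-1 array (highest 0.166). The count of lower factors in upf3-1 at day 3 was 2 without Col-0 day 3 replicate 1 or without upf3-1 day 0 replicate 1, and that in upf1-1 at day 0 was 1 without upf3-1 day 0 replicate 1. The count of higher factors in upf3-1 at day 0 was 2 without Col-0 day 0 replicate 2.

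Some properties of the 36 members with a locus were not part of the choice. In the RefSeq gene table (TAIR10.1), 20 of them (55.6%) have more than 1 annotated transcript, beside 37.8% of 13249 other measured genes. Their median gene length was 2273.5 bases, beside 2105 bases. A total of 14 (38.9%) overlap another annotated locus, beside 27.04%, and AT1G65230, AT5G08360, AT1G70790, AT3G01570 and PRK are among them. They lie on all 5 chromosomes, with 8, 4, 12, 7 and 5 on chromosomes 1 to 5. The suffix s_at, which marks probe sets that may match several transcripts, was carried by 4 of the 66 members (6.06%), beside 4.11% of all probe sets.

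The next coding gene on either side was examined to see whether members stood in shared stretches of the genome. Of 72 such neighbours 34 were measured and were not members. In upf1-1 7, 6 and 6 of them were called higher on days 0, 3 and 6 (20.6%, 17.6% and 17.6%), and in upf3-1 7, 4 and 7 (20.6%, 11.8% and 20.6%), beside the shares of all probe sets given above. Called lower on the same days were 5, 4 and 3 of the 34 in upf1-1 and 1, 4 and 1 in upf3-1. Of all probe sets, 8.55%, 8.44% and 8.27% were called lower in upf1-1 and 7.15%, 13.0% and 9.7% in upf3-1. The median difference of the neighbours lay between -0.04 and 0.05 over the 6 comparisons. The neighbours called higher in all 6 comparisons numbered 3 of 34 (8.82%), beside 4.15% of all probe sets. They were AT1G70780, next to AT1G70790, AT3G56290, next to AT3G56300, and AT1G65220, next to AT1G65230.

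**Figure D5:**
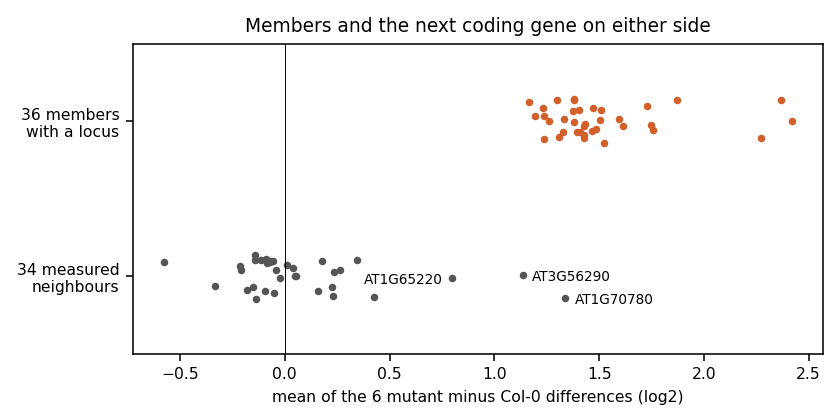
Mean of the 6 differences from Col-0 (x axis, log2) for the 36 members with a locus and for the 34 measured coding genes next to them (y axis, with vertical jitter). Most neighbours lie around 0, and AT1G65220, AT3G56290 and AT1G70780 lie apart to the right.

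AT1G70780 met the threshold of the members and was one of the 8 set aside, with differences between 1.02 and 1.67 over the 6 comparisons. AT3G56290 differed by 0.94, 1.39 and 1.27 and by 0.97, 1.25 and 0.99, just under the threshold on day 0 in both mutants and on day 6 in upf3-1. AT1G65220 differed by 0.82, 0.75 and 0.82 and by 0.82, 0.75 and 0.84, with limma adjusted p of at most 2.02e-07.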

How the data were processed

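The authors deposited 1 log2 value per probe set and array (Affymetrix, 27 arrays), made with RMA per the submitters' processing notes, whose version the sources used here do not give. RMA forces all arrays onto a common distribution, so a shift shared by most transcripts cannot be seen. A second deposited table held the same log2 values (largest difference 0). Groups came from the sample labels, since the series' design text does not name day 6. The number of arrays limits the precision.

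The 64 control probe sets were left out and a model with a mean for each group was fitted over the 27 arrays in limma 3.58.1 (lmFit and eBayes, R 4.3.3), from which 15 contrasts were taken, two-sided, with Benjamini-Hochberg adjustment over 22746 probe sets and a threshold of 0.05. Data were simulated for upf3-1 over upf1-1 on day 0, with independent normal noise for each probe set. The fit found 75 of 100 probe sets altered 1.5-fold and 97 of 100 altered 2-fold. Beside these correct calls it made 17 false ones, and it made 0 calls where nothing was altered. A probe set was named only where the platform annotation gave 1 symbol. RefSeq names, gene types and neighbours came from TAIR10.1, without coordinates.

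The members, lists and tests were chosen with earlier results of these data known. Values are given for the 10 members with 1 symbol and the highest mean difference, up to 4 called members per direction of each tested contrast, the members and non-members nearest the threshold, measured NMD factors (some are not reported here), and further members for their known role, which were chosen after their values were seen. Alternatives were 2 other centrings, a filter on dim probe sets, 1 probe set per gene, other thresholds, other settings of the fit, the second deposited table and leaving out each array.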

Additional observations from a re-analysis of the deposited data

Results flagged for a closer look

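The limma interaction term for the change with day of the difference from Col-0 passed the threshold in 3 cases. In 255997_s_at the upf1-1 difference on day 6 departed from that on day 0 by -1.58 on the log2 scale. In AT1G65230 the upf3-1 difference on day 3 departed from that on day 0 by 0.84. In 249640_at the upf3-1 difference on day 6 departed from that on day 0 by 0.53. These changes are differences between values that chose the members, so they are a description of the members, from which no change with day is read. All 3 lay close to the threshold. In the same order, the calls were lost without any single one of 17, 21 and 16 arrays, with limma adjusted p up to 0.145, 0.117 and 0.104. The cause was not tested.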

How the results depend on the processing

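Centred on reference genes, 76 probe sets met the threshold for members, and centred on the poly-A spike-ins 142, the 66 members among them both times. Both centrings raised every difference of a mutant from Col-0, so no member could drop out. With 1 probe set per gene the number was 36, at a threshold of 0.8 it was 146, at 1.2 it was 36, and without 1 array it lay between 63 and 71. Of 1084 alternative counts, 951 stayed within 1.5 times the reported one and 133 did not. Part of this was fixed in advance. The second deposited table held the same values, so its counts had to agree. Leaving out an array of a group outside a contrast left the difference itself unchanged. None of 51 named differences reversed, and 27 kept their call under every alternative.

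With the spike-in centring, upf3-1 over upf1-1 gave 0 higher at day 0, 5 higher and 1 lower at day 3, and 4 higher and 1 lower at day 6. Col-0 gave 24 higher and 1 lower at day 3 and 55 higher and 0 lower at day 6. Over the whole array, this centring gave 5627 higher among 6442 called probe sets at day 3 in Col-0. At day 6 it gave 20127 higher among 20548. The Col-0 splits are therefore not read as a property of the members. The change of AT4G30680 in Col-0 was then -0.0059 at day 6 (adjusted p = 0.975). The interaction calls in upf3-1 became 0 on both days. In the NMD list upf3-1 then had 2 higher at day 3 and 0 higher at day 6, and upf1-1 had 1 higher at day 6. With the reference gene centring upf3-1 over upf1-1 gave 1 lower at day 6, the upf3-1 interaction on day 3 gave 0, and the NMD list in upf3-1 gave 2 higher on days 0 and 6. With 1 probe set per gene, fewer members were tested. There upf3-1 over upf1-1 gave 4 higher and 1 lower, 3 and 1, and 3 and 0 on days 0, 3 and 6. Col-0 gave 9 and 8 at day 3 and 8 and 10 at day 6. Of the 3 interaction calls, only that of AT1G65230 was tested there, and it was lost (limma adjusted p = 0.0547). The probe sets 255997_s_at and 249640_at have no gene symbol and were not in that fit, which therefore cannot decide on their calls. With only the groups compared, upf3-1 over upf1-1 gave 3 higher and 1 lower at day 6, Col-0 gave 9 lower at day 3, the upf1-1 interaction gained 1 higher at day 6, the upf3-1 interaction on day 3 gave 0, and the NMD list gave 1 higher in upf1-1 at day 0, and 0 higher in upf3-1 at day 0. Without dim probe sets (under 5 in all groups), the upf3-1 interaction on day 6 gained 1 lower, and the NMD list on day 0 had 1 lower in upf1-1 and 2 higher in upf3-1. With eBayes trend and robust settings the upf1-1 interaction on day 6 gave 0 lower. The cause of these moves was not tested unless stated.

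Replicate numbers did not pair the samples: deviations of same-numbered arrays correlated at -0.0125 on average (-0.299 to 0.301), beside 0.00626 for other numbers, and 3 of 27 pairs of groups had all correlations over 0.1. With the replicate block, upf3-1 over upf1-1 gave 11 higher and 2 lower at day 0, 8 and 3 at day 3, and 7 and 2 at day 6, and the upf1-1 interaction on day 6 gave 0 lower (255997_s_at, adjusted p = 0.054).

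Without 1 array, upf3-1 over upf1-1 gave 5 to 14 higher and 2 to 4 lower at day 0, 5 to 10 and 1 to 6 at day 3, and 6 to 8 and 1 to 2 at day 6. Col-0 gave 8 to 16 higher and 10 to 15 lower at day 3, and 12 to 15 and 12 to 20 at day 6. The interactions gave 0 to 1 lower in upf1-1 at day 6, and in upf3-1 0 to 2 higher and 0 to 1 lower on days 3 and 6. The NMD list gave 1 to 2 higher and 0 to 1 lower in upf1-1 at day 0, and in upf3-1 0 to 2 higher at day 0 and 1 to 2 lower at day 3.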
